A study of Mus musculus with 10 samples.

Results

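The 9 genes described here encode the enzymes of the mevalonate pathway from HMG-CoA synthase to the step that forms squalene epoxide: Hmgcs1, Mvk, Pmvk, Mvd, Idi1, Fdps, Ggps1, Fdft1 and Sqle. They are 9 of the 18381 genes in the deposited table, found by their symbols in the GENCODE mouse annotation (release M21, GRCm38), and all 9 passed the filter on low counts that left 14504 genes. The list was chosen by position in the pathway, with the differences between IGF1 and control teeth in these same samples already known. Those differences are therefore given as a description, without a test of the members. Insulin-like growth factor 1 (IGF1) is a secreted growth factor. First lower molars of wild type C57BL/6JOlaHsd mouse embryos at embryonic day 14 were kept as hanging drop cultures for 6 h. From each of 5 embryos (numbered 1, 2, 3, 4 and 6), one tooth received recombinant mouse IGF1 at 750 ng per ml in phosphate-buffered saline with 0.1% bovine serum albumin, and the other tooth received an equal volume of the saline and albumin alone (control). There are thus 5 IGF1 and 5 control samples, each 1 whole tooth with its epithelium and mesenchyme, at 1 dose and 1 time, and no tooth was measured before culture. In whole teeth, more RNA per cell and more cells of a type that expresses a gene cannot be told apart.

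The mevalonate pathway builds isoprenoids from acetyl-CoA. HMG-CoA synthase makes HMG-CoA, from which mevalonate is formed, and a series of kinases and a decarboxylase turn mevalonate into isopentenyl pyrophosphate, the building block of all isoprenoids. Farnesyl pyrophosphate stands at the branch point: it can be joined head to head into squalene on the way to cholesterol, lengthened to geranylgeranyl pyrophosphate, or used for dolichol, ubiquinone and the lipid anchors of proteins such as Ras. Many of these genes are targets of the sterol regulatory element binding proteins (SREBPs), transcription factors that are released from the endoplasmic reticulum when sterols are low. Cholesterol is also attached to Hedgehog proteins, which signal from the dental epithelium.

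The promoters are shown first because SREBPs are known to act at promoters together with NF-Y, which binds the CCAAT box. RefSeq windows of 300 bases (GRCm38.p6, from 250 bases before to 50 bases after the annotated start) were found for 6 of the 9 genes. Fdps, Fdft1 and Sqle had no window in the table. The windows below belong to the first enzyme of the list, to a kinase, to the gene with the largest difference between the groups and to the gene with the smallest. They lie at chr13:119690101-119690400 on the plus strand (Hmgcs1), chr5:114444019-114444318 on the plus strand (Mvk), chr8:122443373-122443672 on the minus strand (Mvd) and chr13:14063439-14063738 on the minus strand (Ggps1). Capitals mark CCAAT on either strand (ATTGG on the printed strand for a match on the other) and TCACNCCAC, the letters of a sterol regulatory element.
Hmgcs1: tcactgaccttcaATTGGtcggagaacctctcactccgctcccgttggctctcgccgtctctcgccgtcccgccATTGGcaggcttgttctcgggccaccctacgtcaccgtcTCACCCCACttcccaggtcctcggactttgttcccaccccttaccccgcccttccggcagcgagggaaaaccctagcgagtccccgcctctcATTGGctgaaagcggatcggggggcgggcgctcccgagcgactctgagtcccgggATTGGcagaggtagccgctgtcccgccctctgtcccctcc
Mvk: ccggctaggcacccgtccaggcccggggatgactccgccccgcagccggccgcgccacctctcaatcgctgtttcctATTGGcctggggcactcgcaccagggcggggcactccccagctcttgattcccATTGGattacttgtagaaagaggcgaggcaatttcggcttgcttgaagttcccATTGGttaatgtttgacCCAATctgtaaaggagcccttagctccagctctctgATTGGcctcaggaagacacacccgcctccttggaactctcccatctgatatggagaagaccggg
Mvd: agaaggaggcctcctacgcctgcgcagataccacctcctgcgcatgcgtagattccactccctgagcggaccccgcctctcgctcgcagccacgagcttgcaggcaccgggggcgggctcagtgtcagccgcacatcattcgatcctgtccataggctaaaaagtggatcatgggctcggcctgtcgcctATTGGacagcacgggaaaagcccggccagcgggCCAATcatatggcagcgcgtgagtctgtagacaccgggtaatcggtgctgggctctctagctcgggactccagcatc
Ggps1: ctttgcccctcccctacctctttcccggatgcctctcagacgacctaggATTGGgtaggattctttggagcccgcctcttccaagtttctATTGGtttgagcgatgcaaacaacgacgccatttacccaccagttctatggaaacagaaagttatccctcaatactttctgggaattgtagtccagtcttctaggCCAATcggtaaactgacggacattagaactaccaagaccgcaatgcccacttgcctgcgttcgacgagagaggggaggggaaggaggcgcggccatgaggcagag

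The window of Hmgcs1 held 4 CCAAT matches and the single TCACNCCAC match among the members, 137 bases before the start. Mvk held 5 CCAAT matches, Mvd held 2 and Idi1 held 2. Pmvk, with 2 annotated starts, held 1 match in one window and 0 in the other. Ggps1 held 3 CCAAT matches, more than Mvd or Idi1. Whether the count of these letters bears on the difference between IGF1 and control teeth was not tested. Of all 32851 promoter windows in the table, 37.4% held CCAAT on either strand, 3.37% held it 3 times or more, and 1.24% held TCACNCCAC. The GC box GGGCGG was present in 35.7% of all windows and in those of Hmgcs1, Mvk, Mvd and Idi1, and it was not in the windows of Pmvk or Ggps1. The shorter CACNCCA, which lies inside TCACNCCAC, was in 18.4% of all windows and, among the members, only in that of Hmgcs1. The matches are letters in a window, and binding was not measured.

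Of the 9 members, 8 were higher in all 5 IGF1 teeth than in any of the 5 control teeth, in counts per 1000000 counts of the library (CPM, after TMM scaling of the library totals), while Ggps1 overlapped between the groups. Among all genes tested, 4.21% had all IGF1 teeth above all control teeth, and as the members were chosen with this contrast known, nothing is read from the count. The median log2 fold change of the 9 members (IGF1 over control, edgeR) was 1.54, beside a median of -0.0038 over all 14504 genes. The summed level of the members ran from 445 to 499.8 CPM in control teeth and from 1280 to 1549 CPM in IGF1 teeth.

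**Figure D1:**
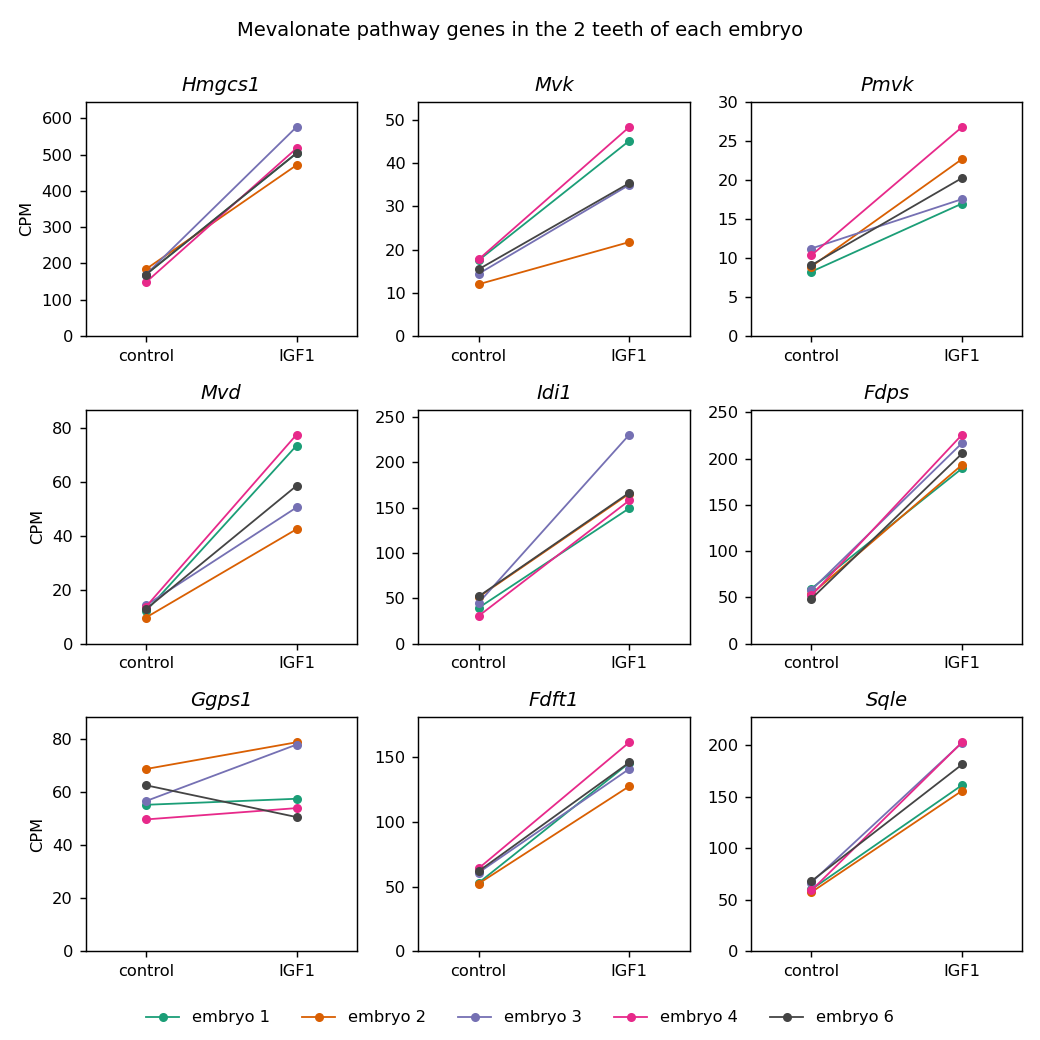
CPM of each member (vertical axes, linear from 0 and scaled per gene) in the control and the IGF1 tooth of each embryo, with a line joining the teeth of an embryo. In 8 panels every line ends above all control points, and in the panel of Ggps1 the lines cross and the groups overlap.

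The genes that lead from acetoacetyl-CoA to isopentenyl pyrophosphate were examined first. Hmgcs1 (ENSMUSG00000093930, chr13:119690379-119708260, plus strand), the cytosolic HMG-CoA synthase, had 169, 184, 169, 148 and 169 CPM in the control teeth of embryos 1, 2, 3, 4 and 6. In the IGF1 teeth of the same embryos it had 504, 471, 577, 518 and 504 CPM. The groups were far apart, with the lowest IGF1 tooth at 2.56 times the highest control tooth, and the teeth within a group were close together. The log2 difference within embryos was 1.62 ± 0.18 (SD, n = 5), a 3.06-fold higher level with IGF1.

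Mvk (ENSMUSG00000041939, chr5:114444269-114460591, plus strand) encodes mevalonate kinase, which adds the first phosphate to mevalonate. Its control teeth had 17.5, 11.98, 14.4, 17.7 and 15.4 CPM, and its IGF1 teeth had 45.2, 21.8, 35.0, 48.4 and 35.4 CPM, in the same order of embryos. Embryo 2 was the lowest in both groups and embryos 1 and 4 were the highest in both, so much of the spread was shared by the teeth of an embryo. The log2 difference was 1.22 ± 0.23 (SD, n = 5), from 0.84 in embryo 2 to 1.43 in embryo 4. Of the 8 genes without overlap Mvk had the narrowest gap, with the lowest IGF1 tooth at 1.23 times the highest control tooth.

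Pmvk (ENSMUSG00000027952, chr3:89454541-89469013, plus strand), the phosphomevalonate kinase, had the lowest counts of the members, from 24 to 191 in a library. The control teeth had 8.25, 8.91, 11.2, 10.4 and 9.09 CPM and the IGF1 teeth had 17.0, 22.7, 17.6, 26.8 and 20.3 CPM. Embryo 3, the highest control tooth, had the next to lowest IGF1 tooth and the smallest difference (0.63 on the log2 scale). The mean difference was 1.09 ± 0.29 (SD, n = 5), or 2.13-fold.

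Mvd (ENSMUSG00000006517, chr8:122433601-122443422, minus strand) encodes the decarboxylase that makes isopentenyl pyrophosphate. It had 12.02, 9.64, 14.2, 13.6 and 12.7 CPM in control teeth and 73.4, 42.4, 50.5, 77.5 and 58.5 CPM in IGF1 teeth. This was the largest difference of the 9 members, 2.23 ± 0.31 on the log2 scale (SD, n = 5) or 4.69-fold. It was the largest member in 4 of the 5 embryos, the exception being embryo 3, where Idi1 was larger. As for Mvk, the IGF1 teeth of embryos 1 and 4 were the highest and that of embryo 2 the lowest. The annotated gene Gm20388 spans the locus on the opposite strand without sharing exon bases, and it was not past the threshold (log2 fold change 0.18, edgeR adjusted p = 0.419).

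The isomerase and the prenyl transferases come next. Idi1 (ENSMUSG00000058258, chr13:8885501-8892451, plus strand), which turns isopentenyl pyrophosphate into its reactive isomer, had 39.5, 51.4, 45.0, 30.5 and 52.1 CPM in control teeth. The IGF1 teeth had 149, 165, 231, 158 and 167 CPM. Embryo 3 stood above the other IGF1 teeth, while embryo 4 was the lowest control tooth. These embryos therefore had the largest differences, 2.35 and 2.36, against 1.67 to 1.91 in the others. The mean was 1.995 ± 0.34 (SD, n = 5), or 3.99-fold.

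Fdps (ENSMUSG00000059743, chr3:89093588-89101959, minus strand), the farnesyl pyrophosphate synthase, had 59.4, 53.6, 58.0, 52.1 and 48.5 CPM in control teeth and 189, 193, 217, 226 and 206 CPM in IGF1 teeth. It had the widest gap of the members, with the lowest IGF1 tooth at 3.19 times the highest control tooth, and a log2 difference of 1.92 ± 0.18 (SD, n = 5). The annotated gene Gm43738 shares exon bases with Fdps on the same strand, so that estimated counts could be split between them. Gm43738 had 4.09 to 9.08 CPM in control teeth and 18.9 to 36.6 CPM in IGF1 teeth. It held 10.1% of the summed counts of both genes in control teeth and 10.8% in IGF1 teeth, and with both added together, an alternative set after seeing the data, the log2 fold change was 1.95, beside 1.93 for Fdps alone in the same fit.

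Ggps1 (ENSMUSG00000021302, chr13:14050659-14063488, minus strand) encodes geranylgeranyl pyrophosphate synthase, which lengthens farnesyl pyrophosphate away from the sterol branch. Its control teeth had 55.3, 68.8, 56.7, 49.8 and 62.7 CPM and its IGF1 teeth had 57.6, 78.9, 78.0, 54.1 and 50.7 CPM. It was higher with IGF1 in 4 of 5 embryos and lower in embryo 6, from -0.31 to 0.46 on the log2 scale. The mean, 0.11 ± 0.28 (SD, n = 5), was smaller than its spread, and Ggps1 had the smallest difference of the members in each of the 5 embryos. Its control level in CPM lay close to that of Fdps, Fdft1 and Sqle, and its counts ran from 161 to 680 in a library. What the level or the counts have to do with the overlap was not tested. Exon bases are shared with Arid4b on the opposite strand, and use of strand in the counting is not stated. Arid4b had 178 to 235 CPM in control and 148 to 226 CPM in IGF1 teeth and was not past the threshold (log2 fold change -0.19, edgeR adjusted p = 0.160), and its part in the counts of Ggps1 was not tested.

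The last pair of genes leads from farnesyl pyrophosphate through squalene to squalene epoxide. Fdft1 (ENSMUSG00000021273, chr14:63145150-63179578, minus strand), the squalene synthase, had 52.9, 52.3, 60.8, 64.1 and 61.9 CPM in control teeth and 146, 128, 141, 162 and 146 CPM in IGF1 teeth. Its log2 difference of 1.30 ± 0.098 (SD, n = 5) had the smallest spread over embryos of the 9 members, from 1.21 to 1.46. Ctsb, which shares exon bases with it on the opposite strand, was not past the threshold (log2 fold change -0.16, edgeR adjusted p = 0.115).

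Sqle (ENSMUSG00000022351, chr15:59315077-59331192, plus strand), the squalene epoxidase that uses oxygen to make squalene epoxide, had 60.1, 57.4, 66.9, 59.1 and 68.2 CPM in control teeth. The IGF1 teeth had 162, 156, 203, 203 and 182 CPM. No IGF1 tooth came near the control teeth, with the lowest at 2.29 times the highest control, and the log2 difference was 1.53 ± 0.16 (SD, n = 5) or 2.88-fold.

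**Figure D2:**
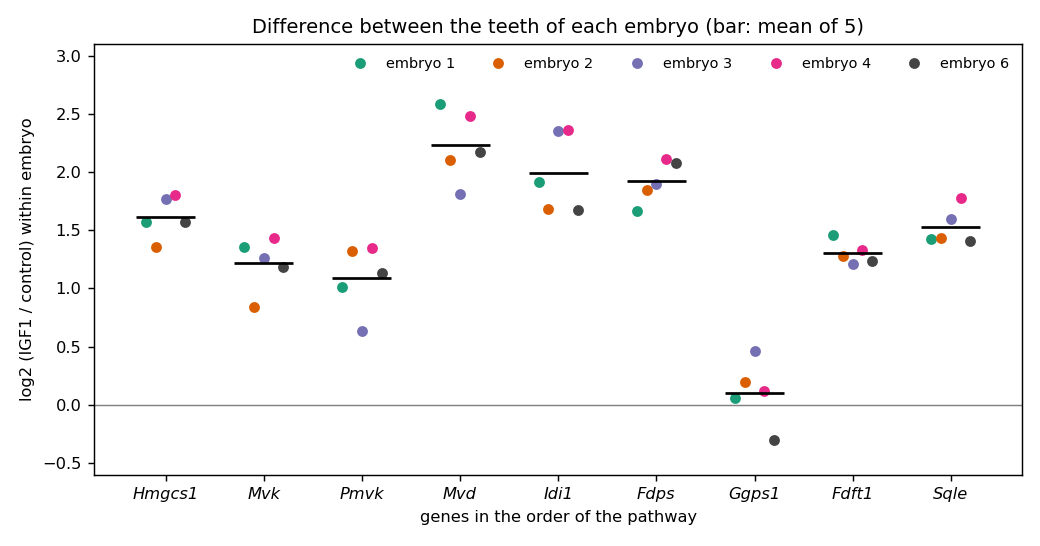
Log2 of the IGF1 tooth over the control tooth within each embryo (vertical axis) for the members in pathway order; points are embryos and the bars are means of 5. All points of 8 genes lie above 0.6, Mvd has the highest mean, and the points of Ggps1 lie on both sides of 0.

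The embryos did not rank the members in a single order. The median over the 9 members was 1.46, 1.35, 1.60, 1.77 and 1.41 on the log2 scale in embryos 1, 2, 3, 4 and 6, while the median over all genes tested lay between -0.0084 and 0.016. Embryo 4 had the largest difference for 6 of the 9 members. The IGF1 tooth of embryo 4 was the highest for 6 members and that of embryo 2 the lowest for 5. Embryo 2 nevertheless had the next to largest difference for Pmvk, and embryo 3 had the largest for Ggps1 and the smallest for Pmvk, Mvd and Fdft1. The coefficient of variation between control teeth ran from 7.72% (Hmgcs1) to 20.6% (Idi1), and between IGF1 teeth from 7.47% (Fdps) to 28.1% (Mvk).

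To compare levels between genes, CPM was divided by the length of each gene's merged exons. In control teeth Hmgcs1 was the highest with 36.5 ± 2.8 CPM per kb (SD, n = 5), above every other member in every tooth. A middle group followed, with Fdft1 at 13.8 ± 1.3, Fdps at 12.9 ± 1.1, Idi1 at 12.5 ± 2.6, Ggps1 at 12.4 ± 1.5 and Sqle at 11.2 ± 0.87 CPM per kb (SD, n = 5). Neighbours in this group overlapped between teeth, so the order of neighbours is not resolved. At its ends, the lowest control tooth of Fdft1 (12.37 CPM per kb) lay above the highest of Sqle (12.29 CPM per kb). This held only for merged exons, and with the longest transcript as the length Fdft1 and Sqle overlapped between control teeth. Mvd at 6.69 ± 0.95, Mvk at 5.76 ± 0.89 and Pmvk at 5.58 ± 0.70 CPM per kb were the lowest and overlapped with each other, but no tooth of theirs reached the middle group. The genes between mevalonate and isopentenyl pyrophosphate were thus the least abundant per length in control teeth.

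The order differed in IGF1 teeth. Hmgcs1 was again the highest at 112 ± 8.4 CPM per kb (SD, n = 5). Idi1 (49.7 ± 9.2) and Fdps (49.0 ± 3.7) followed, and Fdft1 (34.2 ± 2.9), Sqle (32.6 ± 4.0) and Mvd (32.5 ± 8.0) came next. Mvd had thus reached the range of Fdft1 and Sqle. Mvk (13.9 ± 3.9), Ggps1 (13.5 ± 2.9) and Pmvk (12.2 ± 2.4) were the lowest and overlapped. Within a tooth, the log2 ratio of Fdps to Ggps1 per kb was 0.060 ± 0.24 in control teeth and 1.88 ± 0.34 in IGF1 teeth (SD, n = 5), from -0.21 to 0.27 and from 1.46 to 2.23. The log2 ratio of Fdft1 to Fdps went from 0.097 ± 0.22 in control teeth to -0.52 ± 0.098 in IGF1 teeth, without overlap between the groups. With the longest transcript as the length, Hmgcs1 was still the highest and Mvk, Mvd and Pmvk the 3 lowest in control teeth, while 7 of the 9 genes changed places with a neighbour or moved by up to 2 ranks. The length shifts such a ratio by the same amount in every tooth, and with the longest transcript the mean log2 ratio of Fdft1 to Fdps in control teeth changed sign. It was then -0.22 in control and -0.84 in IGF1 teeth, and that of Fdps to Ggps1 was 0.42 and 2.24.

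**Figure D3:**
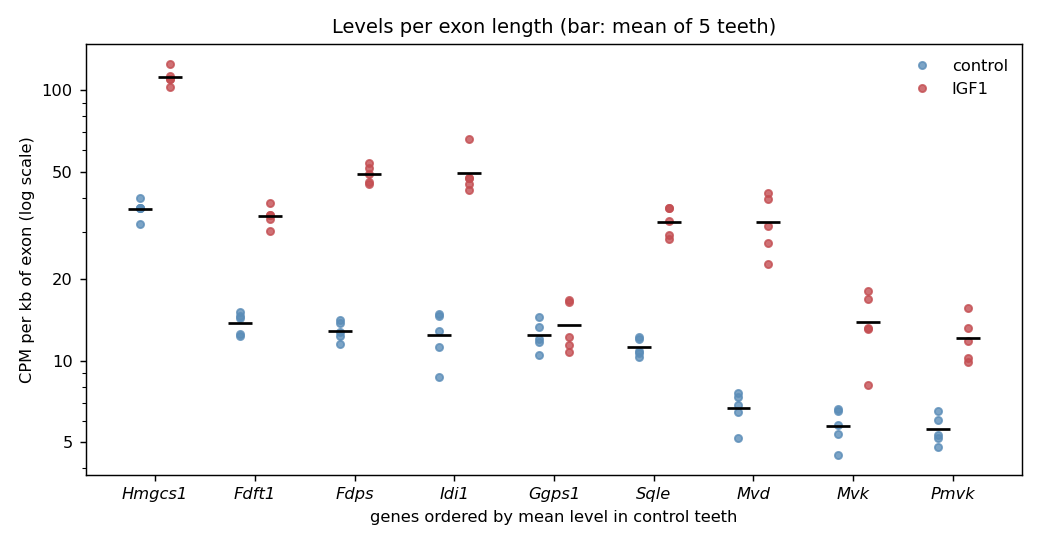
CPM per kb of merged exons (vertical axis, log scale) in the 5 control and the 5 IGF1 teeth, with genes ordered by their mean in control teeth and bars at the means. Hmgcs1 is the highest in both groups, Mvd moves up to the level of Sqle and Fdft1 with IGF1, and Ggps1 stays near 13 CPM per kb.

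Other genes of the pathway were taken from lists by function and read from edgeR's quasi-likelihood test over all 14504 genes, in which an adjusted p-value under 0.05 called 6.72% of genes higher and 4.76% lower. The lists were all written with earlier results of these samples known, so their counts and p-values are no independent evidence. Of 6 genes of acetyl-CoA supply, the thiolases and the isomerase paralog Idi2, 5 rose. Acat2, the cytosolic thiolase that makes acetoacetyl-CoA, rose from 52.0 ± 2.4 to 171 ± 33 CPM (SD, n = 5), a log2 fold change of 1.69 (edgeR adjusted p = 9.91e-06). It thus stood in the range of the members that follow it. Acat1, the mitochondrial thiolase, was not past the threshold (0.35, edgeR adjusted p = 0.0736).

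Genes of acetyl-CoA supply rose as well. Acss2, the acetyl-CoA synthetase that uses acetate, had 9.75 ± 1.5 CPM in control and 34.7 ± 7.2 CPM in IGF1 teeth (1.82 on the log2 scale, edgeR adjusted p = 1.83e-05). Acly, the ATP citrate lyase, rose by 0.89 (edgeR adjusted p = 5.56e-05) and Slc25a1, the mitochondrial citrate carrier, by 1.02 (edgeR adjusted p = 0.000104). Idi2, a paralog of Idi1 that lies at chr13:8952863-8960945 beyond the end of Idi1, had only 2.96 ± 1.1 CPM in control and 8.83 ± 3.6 CPM in IGF1 teeth (1.57, edgeR adjusted p = 0.00273), and how far it shares reads with Idi1 was not tested.

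The genes that use isoprenoids outside sterol synthesis were read next, and how they differ from the other lists was not tested. Of 22 genes for dolichol, ubiquinone, heme A, tRNA modification and protein prenylation, 1 was called higher and 0 lower by edgeR. At the same adjusted threshold DESeq2 called 0 higher and 0 lower, and limma-voom 1 higher and 0 lower. At an unadjusted p under 0.05 in edgeR, 6 were higher and 1 lower, beside 14.3% and 12.2% of all genes. Their median log2 fold change was 0.11 and they ran from -0.19 to 0.50. The gene called was Dolpp1, which recycles dolichol pyrophosphate, with 12.1 ± 1.7 and 17.1 ± 2.5 CPM (0.50, edgeR adjusted p = 0.0221), but its call was lost in 6 of 11 alternatives, with adjusted p from 0.0183 to 0.0888. The enzymes next to Fdps and Ggps1 in these branches were not past the threshold. Dhdds and Nus1, the subunits of the dolichol chain synthase, had log2 fold changes of 0.23 and 0.26 (edgeR adjusted p = 0.0816 and 0.0652). Fnta, a subunit shared by the farnesyl and geranylgeranyl transferases, had -0.19 (edgeR adjusted p = 0.153), and Pggt1b, the geranylgeranyl transferase subunit, had 0.020 (edgeR adjusted p = 0.927).

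Downstream, 10 of 11 genes from lanosterol to cholesterol rose, with a median log2 fold change of 1.58. The other gene, Ebp, a sterol isomerase, lay just outside the threshold (0.45, edgeR adjusted p = 0.0502), with all IGF1 teeth above all control teeth. Lss, which closes squalene epoxide into lanosterol and so takes over from Sqle, rose from 44.8 ± 6.2 to 173 ± 16 CPM (1.95, edgeR adjusted p = 6.03e-07). Of 7 genes of SREBP control, 3 rose and 1 fell. Srebf2, the SREBP that favours sterol genes, rose by 0.90 (edgeR adjusted p = 9.12e-06) and Insig1, which holds SREBPs back in the endoplasmic reticulum, by 1.37 (edgeR adjusted p = 1.30e-06), each in 5 of 5 embryos. Srebf1, the SREBP that favours fatty acid genes, rose by 0.95 (edgeR adjusted p = 0.00013). The gene that fell was Mbtps1, a protease that helps to release SREBPs (-0.31, edgeR adjusted p = 0.0156).

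**Figure D4:**
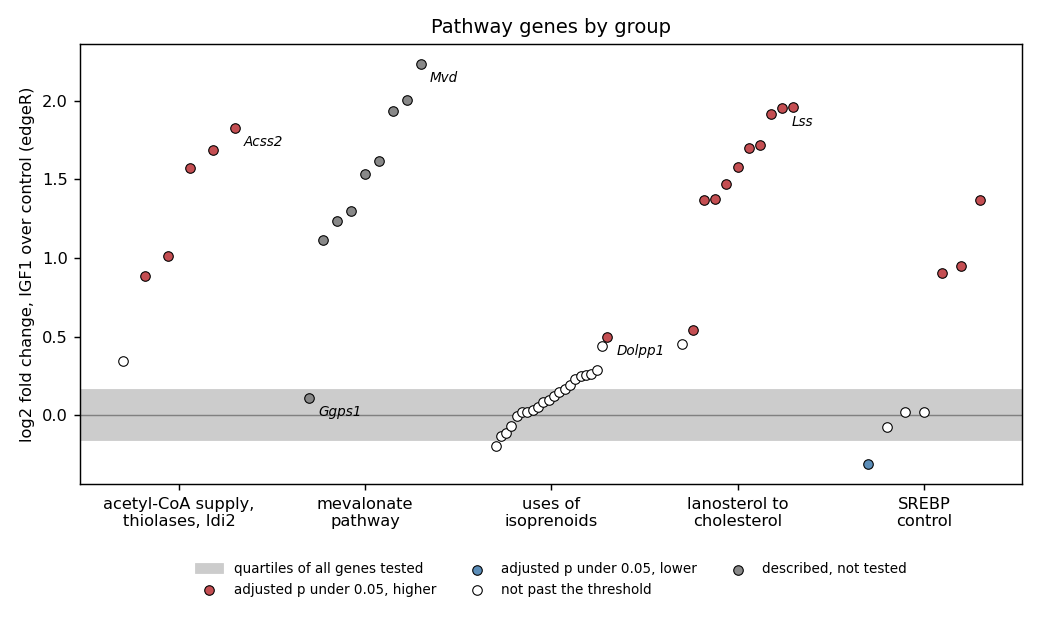
Log2 fold change with IGF1 over control (edgeR, vertical axis) for the pathway genes by group, each point a gene, with the quartiles of all genes tested as a band. Grey points are the 9 members, filled points of the other groups passed an adjusted p of 0.05, and the genes that use isoprenoids lie near the band together with Ggps1.

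Genes outside these lists were then ranked by likeness to the members, as the root mean square difference between log2 CPM profiles over the 10 samples, each centred on its own mean. The 10 closest were Stard4 (0.117), Scd2 (0.153), Fads2 (0.171), Tmem97 (0.188), Aacs (0.189), Elovl6 (0.195), Fasn (0.223), Acaca (0.234), Phgdh (0.241) and Fads1 (0.246). For comparison, the members themselves lay between 0.0801 (Sqle) and 0.715 (Ggps1) from their own mean profile, which includes them. Stard4, a sterol carrier, had 33.0 ± 1.6 CPM in control and 95.8 ± 13 CPM in IGF1 teeth (SD, n = 5), and Scd2, a fatty acid desaturase, had 711 ± 57 and 2103 ± 161 CPM. Aacs encodes acetoacetyl-CoA synthetase, and Fasn, Acaca, Elovl6, Fads1 and Fads2 encode enzymes that make, lengthen or desaturate fatty acids. As a profile includes the treatment, any gene with a difference of like size ranks high, and the ranking is a description.

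Library totals ran from 2845773 to 8403151 counts in control teeth and from 3456634 to 8763113 in IGF1 teeth, with both teeth of embryo 1 the smallest. Mitochondrial transcripts made up 2.17% to 3.28% of counts in control and 2.05% to 2.51% in IGF1 teeth. Within embryos the share went from 3.28% in the control to 2.09% in the IGF1 tooth in embryo 2. It went from 2.64% to 2.07% in embryo 3, from 2.17% to 2.05% in embryo 4 and from 2.94% to 2.17% in embryo 6. In embryo 1 it was higher in the IGF1 tooth (2.45% and 2.51%). What this share has to do with the members' values was not tested. Markers of dental epithelium were present, with 1 of 8 called higher and 0 lower and a summed level of 1476 to 2206 CPM in control and 1762 to 2319 CPM in IGF1 teeth. Of 8 mesenchymal markers, 0 were called higher and 2 lower (5237 to 7006 and 4611 to 6281 CPM). Of 6 blood markers tested, 5 were called lower (849 to 1421 and 604 to 1108 CPM), as was 1 of 4 endothelial markers (302 to 340 and 234 to 308 CPM) and 1 of 4 macrophage markers (34.7 to 52.6 and 32.8 to 52.7 CPM). Of 3 glial and 4 skeletal muscle markers, 0 passed the filter on low counts, with at most 21 and 16 counts in a library. In each list with tested genes the summed levels of the groups overlapped. Within embryos the summed level was lower in the IGF1 tooth in 5 of 5 embryos for blood, mesenchymal and endothelial markers and in 4 of 5 for macrophage markers, and higher in 4 of 5 for epithelial markers. Lower in every embryo were 6 of 6 blood, 4 of 8 mesenchymal, 2 of 4 endothelial, 1 of 4 macrophage and 0 of 8 epithelial markers, beside 11.2% of all genes tested. Higher in every embryo were 2 of 8 epithelial markers, Krt5 and Krt8, beside 13% of all genes, and 0 of the other lists. The part of cell composition in the members' values was not tested.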

How the data were processed

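RNA was sequenced from 10 cultured molars, 1 library for each tooth. The authors deposited estimated counts for each Ensembl gene made with salmon (the submitters' processing notes name Salmon 0.99.0, Trimmomatic 0.39, FastQC 0.11.8, DESeq2 and GRCm38), without normalization. The transcript set, use of strand and filtering are not given in the sources used here. The values are whole numbers and each gene has at least 10 counts in all, so rounding changed 0 values. Of 18381 gene identifiers, 18287 were found in GENCODE M21.

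Counts were scaled by TMM, filtered with edgeR's filterByExpr and tested with edgeR's quasi-likelihood test, with embryo as a block and Benjamini-Hochberg adjustment over all 14504 genes; a gene was called at an adjusted p-value under 0.05. Each embryo gave one tooth to either group per the labels, and deviations from the group means correlated within embryos at 0.319, 0.208, -0.0389, 0.170 and 0.313 (median between embryos -0.0463). Differences within embryos are log2 CPM with a prior count of 2. Any 2 libraries within a group were further apart than counting error (chi-square per degree of freedom 4.52 to 18.2). P-values cover the spread over 5 embryos.

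The members and lists were chosen with earlier results of these data known. The genes named are the 9 members, Acat2, Idi2, Lss, Srebf2, Insig1, the called genes of the entry and isoprenoid lists, and the 10 genes closest to the members; the other genes named were added after their values were seen. Some genes that the lists and the rule for names first held are not reported here, and the lists are counted without them. Alternatives were the fit without the block, RLE size factors, limma-voom, the Wald test of DESeq2, changed low-count filters and leaving out each embryo. For the overlap of the groups they were CPM on RLE size factors and on plain library totals. The procedures were tested on simulated data. The software was DESeq2 1.42.0, edgeR 4.0.16 and limma 3.58.1 in R 4.3.3, with annotation handled in Python 3.11.15.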

Additional observations from a re-analysis of the deposited data

Results flagged for a closer look

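Among the members and the other pathway genes named by rule, 36 groups of 5 teeth were examined for a tooth far from the others (gap to the nearest tooth over the whole range above 0.71), of which chance gives about 1 in 20, or 1.8. Of these, 1 had such a tooth. For Idi1 the IGF1 tooth of embryo 3 had 231 CPM against 149 to 167 in the other IGF1 teeth (ratio 0.789), and without embryo 3 the log2 fold change of Idi1 was 1.90. All 5 IGF1 teeth lay above all control teeth.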

How the results depend on the processing

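The log2 fold changes of the 9 members kept their direction in 99 of 99 planned values and moved by less than the spread over embryos in each. Fits without an embryo share the other embryos with the main fit, so small moves are largely built in and are no independent check. The values of Ggps1 ran from 0.014 (without embryo 3) to 0.22 (without embryo 6). The median over the members also held in each alternative fit. The count of 8 members without overlap was examined only with CPM on RLE size factors and on plain library totals, and it was 8 in each. Without the replicate block 887 genes were called over the table in place of 1666. Leaving out an embryo gave 986 (without embryo 4) to 1602 calls, with 994 without embryo 6; fewer samples enter those fits. The count of isoprenoid-using genes called higher was 1. It was 0 without the replicate block, 0 with DESeq2's Wald test, 2 with at least 10 counts in every sample, and 0 to 1 when an embryo was left out, with 0 without embryos 1, 4 or 6. The gene called was Dolpp1, joined by Nus1 with at least 10 counts in every sample (adjusted p = 0.0489 in edgeR), whereas without embryo 3 Dolpp1 lost its call and the gene called was Cox10 (edgeR adjusted p = 0.0364). Of the 11 lanosterol to cholesterol genes 10 were called, and 11 with RLE size factors, with at least 10 counts in every sample and without embryo 3. Of 99 values of the 9 other pathway genes named by rule, 6 lost their call, all of Dolpp1, and 0 reversed. Among those 9 genes, leaving out the block changed the call of Dolpp1 alone; for the other genes named it was not examined. Of the 10 genes most like the members, 9 were shared with a prior count of 0.5 and 10 with RLE size factors. Of the members Pmvk had the lowest counts, 24 in its lowest library. For the changes that do not follow from fewer samples or genes, the cause was not tested.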
